A study of Mus musculus with 56 samples.

Results

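Mouse CD4 T cells in dense culture were compared at 30 h and 48 h after activation. The comparison takes the 3 libraries of cells started at 1000000 cells per ml and collected at 48 h, and the 3 started at the same concentration and collected at 30 h. These are 6 of the series' 56 libraries, chosen by the labelled hour and starting concentration, not by any measured value. All cells were CD4 T cells from the spleen of C57BL/6 mice with no transgene or deletion. They were activated by beads bearing antibodies to CD3 and CD28, with no cytokine added, in 1 ml of RPMI medium per well. The cells were sorted as CD4 positive before RNA was taken, and were not divided further. The same interval in cells started at 62500 cells per ml, again 3 libraries at 30 h and 3 at 48 h, served as the contrasting condition and is called the low concentration. Naive cells and cultures of 18 h and 72 h are used below only to place the interval in a time course.

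A naive T cell that meets its antigen and a CD28 signal leaves rest, enlarges, copies its genome and divides repeatedly. The early response includes immediate transcription factors, secretion of interleukin-2 (IL-2) and a large rise in ribosome production and biosynthesis under the transcription factor Myc. IL-2 signals back through its receptor and STAT5, while the naive programme of homing and egress receptors is lowered and can return later in cells that go on to memory. Cells short of oxygen stabilise the HIF transcription factors, which raise glucose transport, glycolysis and genes such as Vegfa and Egln3. Cells short of amino acids, or with stress in the endoplasmic reticulum or mitochondria, induce the transcription factor ATF4 and its targets.

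The 6 libraries held 1182242 to 2733659 counts, 24.8 to 26.5% of them from ribosomal protein genes. The 48 h replicate 1 stood apart from the other 48 h libraries. Its log2 CPM correlated with replicate 3 at 0.9316 and with replicate 2 at 0.9511, against 0.9704 between those 2 libraries. It was also the smallest of the 6 libraries, at 1182242 counts, and whether depth lowered its correlations was not tested. The counts were repeated without this library and are given below where they changed. The T-cell identity genes were present in every library, 14 of 14 detected, and summed to 4376 to 4730 CPM (counts scaled to a common library size of 1e+06) at 30 h and 6239 to 6859 at 48 h. B-cell markers summed to 3.58 to 6.48 CPM at 30 h and 6.08 to 9.24 at 48 h, with the defining markers Ms4a1, Pax5, Ebf1, Cd22 and Cr2 at 0. CD8 and NK-cell markers summed to 41.0 to 65.8 CPM at 30 h and 21.9 to 33.7 at 48 h, mostly from Cd8b1, which fell (log2 difference -0.88, edgeR adjusted p = 0.00135), with Ncr1, Klrb1c, Klra4, Klra8, Klrk1 and Klre1 at 0. Myeloid markers summed to 90.1 to 136 CPM at 30 h and 176 to 216 at 48 h, mostly from Cst3, which rose (0.72), with Csf1r, Adgre1, S100a9, Itgax and Siglech at 0. None of the 10 red-cell and platelet markers had a count. These are bulk libraries, so a change in the share of a kind of cell and a change in the RNA of each cell cannot be told apart.

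Gene expression changed widely in this interval. Of 9239 genes tested, 2778 (30.1%) passed an adjusted p of 0.05, with 1547 (16.7%) higher and 1231 (13.3%) lower at 48 h (edgeR's quasi-likelihood test, Benjamini-Hochberg adjustment, n = 3 against 3). Large changes were more often rises, as 301 of the called genes were over 4-fold higher and 51 over 4-fold lower. Across all genes tested the median log2 difference was 0.057, so values below are close to changes relative to the typical gene. Counts of list members at the high concentration are to be read below beside the shares of all genes, 16.7% higher and 13.3% lower. The shares at the low concentration and in the test of the difference are given with those results. The 3 libraries of one time lay wholly above the 3 of the other for 3725 genes (40.3%), and for 2561 of the called genes. Without the 48 h replicate 1, 2353 genes passed, and without the 30 h replicate 3, 2209, the lowest count on leaving out 1 of the 6 libraries. Whether libraries of a group came from separate mice or cultures is unstated, and a p-value here reflects library-to-library spread alone, which may be technical. Differences are given as log2 of 48 h over 30 h, and levels as CPM scaled by the TMM factors of edgeR, with replicates in the order 1, 2 and 3. These are 3′ end counts, so levels are compared within a gene and not between genes.

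The genes with the largest rises at or above the median level included surface proteins, a kinase and genes regulated by oxygen or interferon. Itga7, which encodes the α7 integrin chain, stood at 0, 0.796 and 2.62 CPM at 30 h and at 84, 51 and 38.2 at 48 h (log2 difference 5.31, SE 0.45, adjusted p = 2.21e-13). Amica1, an adhesion molecule of the junctional family, stood at 7.2, 4.77 and 5.61 CPM and then at 207, 128 and 131 (log2 difference 4.75, SE 0.27, adjusted p = 3.1e-20). Lrrc32, which encodes GARP, the docking receptor for latent TGF-β, stood at 5.76, 1.59 and 2.62 CPM and then at 102, 86.9 and 51.9 (log2 difference 4.71, SE 0.36, adjusted p = 2.44e-15). In each of these 3 genes every 48 h library lay above every 30 h library. The largest rises were chosen only among genes with such separation, so it adds no support. Drc1, named for the dynein regulatory complex of cilia, and Espn, an actin-bundling protein, rose by log2 4.88 and 4.75. Ifi27, an interferon-inducible gene, rose by 4.00, Matk, a kinase that acts on Src family kinases, by 3.91, and Irf7, Anxa2 and Egln3 by 3.84, 3.79 and 3.74. Naive means of Ifi27 (335.3 CPM), Matk (126.2) and Irf7 (256.9) lay above their 48 h means (144.7, 48.17 and 21.1). Those of the other genes named in this paragraph lay below.

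The largest falls included secreted products of the activated T cell. Ccl4, a chemokine, stood at 208, 172 and 215 CPM at 30 h and at 5.88, 5.47 and 9.56 at 48 h (log2 difference -4.76, SE 0.25, adjusted p = 1.01e-20). Il2, the T-cell growth factor, stood at 146, 137 and 176 CPM and then at 5.88, 16.4 and 19.6 (log2 difference -3.36, SE 0.28, adjusted p = 4.26e-13). Tnfsf11, which encodes RANK ligand, stood at 112, 99.8 and 122 CPM and then at 5.04, 31 and 23.2 (log2 difference -2.41, SE 0.35, adjusted p = 2.95e-06). The groups did not overlap in any of these, but the rule for choosing the largest falls required that, so it adds no support. The 48 h replicate 1 was the lowest of its group for Il2 and Tnfsf11. Marcksl1, a regulator of actin (log2 difference -2.81), Lad1, an anchoring filament protein (-2.52), and Cd200, an inhibitory ligand (-2.17), also fell. Bcl2a1b, a survival factor of the Bcl2 family, has the log2 difference -2.83, though near-identical gene copies make its counts uncertain, as they do for the histone gene Hist1h3a (-2.14). Rpph1, the RNA component of RNase P, had the largest fall, from 3442, 3749 and 4318 CPM to 119, 97.2 and 109.7 (log2 difference -5.14, SE 0.23, adjusted p = 9.75e-21), and the microRNA gene Mir6516 fell as well (-2.39). Neither is a typical polyadenylated messenger RNA and these libraries were primed with poly-T, so their values are uncertain.

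**Figure D1:**
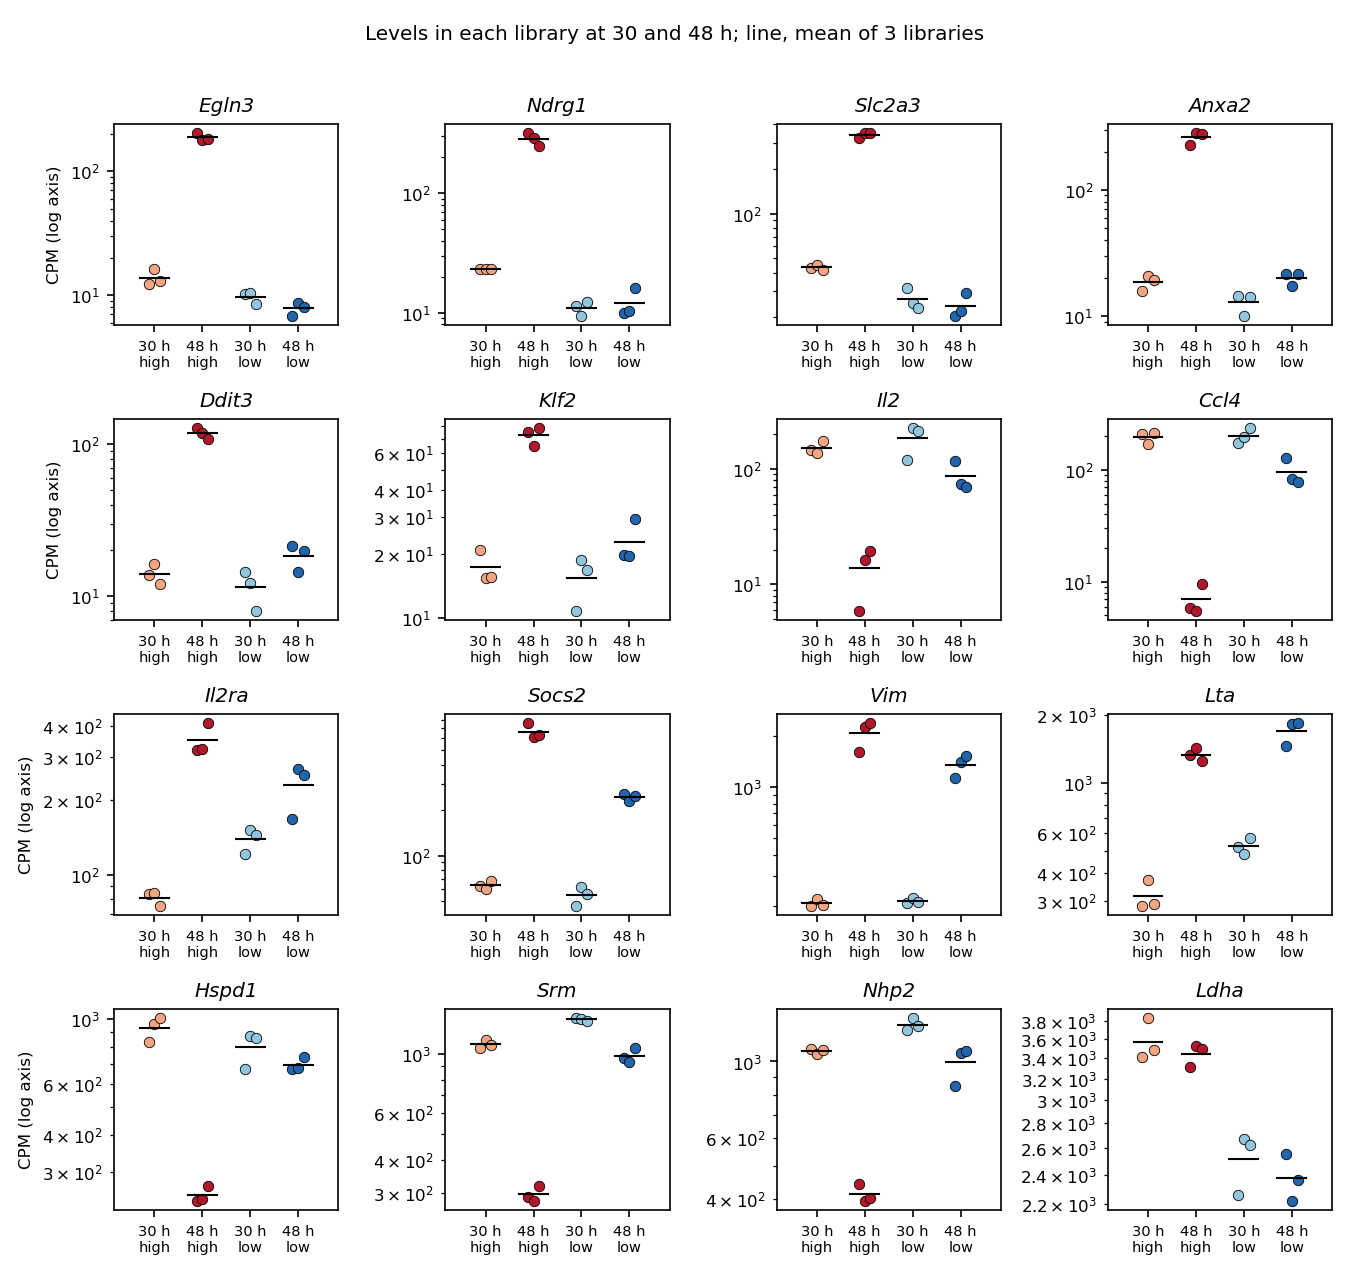
CPM (log axis) of 16 genes in each library at 30 and 48 h for the high (red) and low (blue) concentration; points are libraries and lines are means of 3. Egln3, Ndrg1, Slc2a3 and Anxa2 are separated at 48 h high from the other 3 groups, Lta and Vim are higher at 48 h at both concentrations, and Ldha overlaps between 30 and 48 h high.

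Genes induced by low oxygen rose together. Of the 22 tested members of the hypoxia list, 15 rose and none fell, against 16.7% and 13.3% of all genes, and the median log2 difference was 1.35 beside 0.057. Without the 48 h replicate 1, 14 members rose. Egln3 and Mgarp, a prolyl hydroxylase that marks HIF for degradation and a mitochondrial protein, and Bnip3, a receptor for mitochondrial autophagy, are shown here with the promoter around their start site, since hypoxia response elements share the core ACGTG or GCGTG. Each promoter runs from 250 bases before to 50 after the start in RefSeq's GRCm38.p6 annotation, on the minus strand of the genome for all 3 and printed 5′ to 3′ along the gene, with each match of the core on either strand in capitals.
Egln3 (chr12:54203825-54204124): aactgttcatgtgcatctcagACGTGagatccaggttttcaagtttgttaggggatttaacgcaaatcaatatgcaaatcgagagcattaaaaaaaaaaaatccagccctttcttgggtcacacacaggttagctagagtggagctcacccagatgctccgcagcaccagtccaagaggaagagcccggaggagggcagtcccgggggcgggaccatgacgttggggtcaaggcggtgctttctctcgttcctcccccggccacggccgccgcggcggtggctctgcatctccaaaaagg
Mgarp (chr3:51396498-51396797): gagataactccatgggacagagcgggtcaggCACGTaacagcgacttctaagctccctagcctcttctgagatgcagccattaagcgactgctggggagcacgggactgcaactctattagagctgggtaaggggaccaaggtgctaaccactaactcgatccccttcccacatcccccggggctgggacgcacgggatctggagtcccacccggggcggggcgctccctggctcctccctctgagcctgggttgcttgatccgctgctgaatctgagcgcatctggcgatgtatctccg
Bnip3 (chr7:138909457-138909756): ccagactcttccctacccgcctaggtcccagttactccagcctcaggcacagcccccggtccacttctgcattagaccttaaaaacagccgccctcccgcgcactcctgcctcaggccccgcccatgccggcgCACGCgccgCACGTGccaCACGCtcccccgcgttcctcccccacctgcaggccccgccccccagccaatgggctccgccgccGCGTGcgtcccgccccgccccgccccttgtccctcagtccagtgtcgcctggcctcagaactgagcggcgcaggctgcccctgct
Egln3 and Mgarp each have 1 match and Bnip3 has 5, of which 2 are the strands of the same palindrome. Of the whole hypoxia list, tested or not, 22 genes have a promoter in the table. These are not the same 22 as the tested members, since Ndrg1 has no promoter there. All 22 with a promoter have at least 1 such match. So do 69.9% of the 7478 tested genes with a promoter, 46.7% of all 27025 genes in the table and 66.5% of the genes that rose. A match is not evidence of binding. The narrower core ACGTG is in 81.8% of the list's promoter sets, 30.5% of those of tested genes and 21.8% of all.

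Egln3 stood at 12.2, 16.3 and 13.1 CPM at 30 h and at 202, 180.4 and 182 at 48 h (log2 difference 3.74, SE 0.21, adjusted p = 3.89e-20). Ndrg1, a gene induced by hypoxia and growth arrest, stood at 23.1, 23.1 and 23.2 CPM and then at 316, 290.4 and 249.9 (log2 difference 3.62, SE 0.19, adjusted p = 2.5e-21). Mgarp stood at 9.36, 8.35 and 7.85 CPM and then at 69.7, 88.1 and 89.2 (log2 difference 3.29, SE 0.3, adjusted p = 1.22e-12). In all 3 the replicates of each time lay close together and the times did not overlap. Bnip3 was more scattered at 48 h, at 76.4, 172 and 238 CPM after 36.7, 30.2 and 35.1, with replicate 1 lowest (log2 difference 2.28, SE 0.29, adjusted p = 7.42e-08). Vegfa, the vascular growth factor, rose from 8.64, 11.5 and 7.47 to 64.7, 63.2 and 49.6 CPM (log2 difference 2.66, SE 0.33, adjusted p = 7.62e-09). Ddit4, an inhibitor of mTORC1, rose by 1.89, and Anxa2, a membrane-binding annexin, by 3.79. Hif1a, the oxygen-regulated subunit whose control is largely on the protein, stood at 41, 30.2 and 49.3 and then at 13.4, 42.5 and 39.6 CPM, overlapping groups (log2 difference -0.29, adjusted p = 0.584).

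Genes for glucose entry and lactate exit rose, as did part of glycolysis. Of the 9 tested transporters of glucose, lactate and protons 5 rose and none fell, with a median of 1.17. Slc2a3, which encodes the glucose transporter GLUT3, stood at 43.2, 45 and 41.9 CPM at 30 h and at 322, 348 and 348 at 48 h (log2 difference 2.97, SE 0.18, adjusted p = 5.23e-19). Slc2a1, which encodes GLUT1, stood at 75.6, 108 and 101 CPM and then at 263, 249.7 and 244 (log2 difference 1.40, SE 0.17, adjusted p = 3.32e-09). Slc16a3, which encodes the lactate exporter MCT4, stood at 158, 159 and 137 CPM and then at 538, 472 and 352 (log2 difference 1.58, SE 0.21, adjusted p = 9.17e-08). All 3 separated the times fully. The other transport genes that rose were Slc37a4, which carries glucose phosphate (1.17), and Bsg, the chaperone of lactate transporters (0.71). Among the 15 tested glycolysis genes 7 rose and none fell, with a median of 0.596, and 6 rose and 1 fell without the 48 h replicate 1. Gpi1, the glucose phosphate isomerase, rose by 0.80, Hk1, a hexokinase, by 0.87, Aldoa, an aldolase, by 0.69, and Pfkm, a phosphofructokinase, by 1.20. Ldha, which reduces pyruvate to lactate, stood at 3408, 3832 and 3480 CPM and then at 3314, 3532 and 3495, overlapping groups (log2 difference -0.05, SE 0.12, adjusted p = 0.798). Gapdh did not pass, other than with no filter on low counts or without 30 h replicate 3, and was listed at 9.36, 11.5 and 597 CPM in the 30 h replicates and 766, 916 and 842 in the 48 h replicates, a spread within 1 group that leaves its level uncertain.

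Mitochondrial energy genes leaned the other way. Of 31 tested genes of oxidative phosphorylation 11 fell and 1 rose, with a median of -0.217, and 7 fell without the 48 h replicate 1 or in a fit of the 6 libraries alone. Atp5g1, a subunit of the ATP synthase ring, stood at 642, 549 and 783 CPM at 30 h and at 213, 230.3 and 226 at 48 h (log2 difference -1.56, SE 0.17, adjusted p = 1.52e-10). Cyc1, cytochrome c1 of complex III (-1.01), Uqcrq of the same complex (-0.84) and Ndufa4 (-1.53) fell too. The gene that rose was Ndufb3 of complex I (0.43), a call lost in 9 alternatives. In the list of pyruvate dehydrogenase and the tricarboxylic acid cycle 4 of 21 tested members fell, against 13.3% of all genes, and 1 rose, while 8 fell without 48 h replicate 3. The 4 were Idh3a (-0.99), Sdhd (-0.86), Dld (-0.81) and Mdh2 (-0.54), and the 1 was Pdk1, the kinase that shuts pyruvate dehydrogenase (0.98, groups overlapping, adjusted p = 0.0195), whose call was lost without 30 h replicate 2 or 3, or without 48 h replicate 1 or 3.

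Sterol and fatty acid synthesis rose in part. Of 22 tested genes of cholesterol synthesis 9 rose and none fell, with a median of 0.425 and 8 rising without the 48 h replicate 1. Fdps, which makes farnesyl diphosphate, stood at 185, 231 and 180.5 CPM and then at 386, 414 and 364 (log2 difference 0.96, SE 0.14, adjusted p = 2.95e-07). Mvd, the mevalonate decarboxylase, rose by 1.68, Tm7sf2, a sterol reductase, by 1.93, and Hmgcs1, the synthase at the entry of the pathway, by 0.61. Sqle, the squalene epoxidase, stood at 72, 87.1 and 96.4 and then at 48.7, 92.3 and 85.1 CPM and did not pass (-0.17, adjusted p = 0.576). Of 13 tested fatty acid genes 7 rose, among them the desaturases Scd2 (0.65) and Scd1 (1.42, a call lost without 48 h replicate 2). The count was 2 in a fit of the 6 libraries alone, 5 without 48 h replicate 1, and 4 without 30 h replicate 1 or 2 or without 48 h replicate 2 or 3.

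Part of the ATF4 list rose. Of its 23 tested members 9 rose and 3 fell, against 16.7% and 13.3% of all genes, so the share that fell is that of all genes. The median was 0.405, and 10 rose and 2 fell without the 48 h replicate 1. Across the alternatives 6 to 10 rose and 0 to 4 fell, with 6 rising at a minimum count of 30, 1 falling in a fit of the 6 libraries alone or without 30 h replicate 3 or 48 h replicate 3, and none falling without 30 h replicate 2. Trib3, a pseudokinase that restrains ATF4, and Asns, the asparagine synthetase, are shown with their promoters because both rose and both hold TGATGNAA, a form of the amino acid response element, on either strand in capitals (RefSeq, GRCm38.p6, minus strand for both).
Trib3 (chr2:152344011-152344310): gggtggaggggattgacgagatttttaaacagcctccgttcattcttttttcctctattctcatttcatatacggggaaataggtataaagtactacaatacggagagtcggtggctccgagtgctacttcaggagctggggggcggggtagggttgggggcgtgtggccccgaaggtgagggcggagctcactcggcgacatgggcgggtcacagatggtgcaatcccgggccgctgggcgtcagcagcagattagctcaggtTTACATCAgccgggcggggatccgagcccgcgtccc
Asns (chr6:7693160-7693459): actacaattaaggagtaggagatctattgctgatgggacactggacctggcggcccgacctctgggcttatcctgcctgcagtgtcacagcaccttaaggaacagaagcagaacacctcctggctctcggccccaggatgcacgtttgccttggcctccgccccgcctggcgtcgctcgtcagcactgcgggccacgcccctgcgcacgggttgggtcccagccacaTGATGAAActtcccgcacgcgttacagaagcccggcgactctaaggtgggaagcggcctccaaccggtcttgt
The element occurs in 39.1% of the list's 23 genes with a promoter, taken whether tested or not, 2.69% of tested genes and 4.51% of all genes in the table. It also occurs in 38.5% of the 13 aminoacyl tRNA synthetase genes with a promoter.

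Trib3 stood at 6.48, 3.18 and 4.48 CPM at 30 h and at 85.6, 63.8 and 71 at 48 h (log2 difference 4.01, SE 0.29, adjusted p = 5.79e-16). Ddit3, which encodes the stress factor CHOP, stood at 13.7, 16.3 and 12 CPM and then at 128, 119 and 108 (log2 difference 3.07, SE 0.22, adjusted p = 3.13e-16). Asns stood at 19.4, 19.5 and 13.8 CPM and then at 49.5, 82.6 and 76 (log2 difference 2.00, SE 0.28, adjusted p = 1.11e-07). The groups were apart in all 3, with Asns lowest in 48 h replicate 1. Nupr1, a small stress-induced chromatin protein, was nearly uncounted at 30 h, at 1.44, 0.398 and 0.374 CPM, and stood at 66.3, 54.7 and 56 at 48 h (adjusted p = 1.11e-13). The members that fell were Slc1a5, a glutamine transporter (-0.59), and the serine synthesis genes Psat1 (-0.55) and Psph (-0.42), calls lost in 2, 4 and 7 alternatives, while Atf4 itself had 0.24 and did not pass (adjusted p = 0.141). None of the 19 tested aminoacyl tRNA synthetases rose and 7 fell, among them Hars (-0.66) and Eprs (-0.63), with 6 falling without the 48 h replicate 1 and 4 in a fit of the 6 libraries alone.

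The metallothioneins, small zinc-binding proteins induced by metals and stress, rose sharply. Mt1 stood at 47.5, 33.8 and 24.3 CPM at 30 h and at 304, 286 and 244 at 48 h (log2 difference 3.01, SE 0.22, adjusted p = 4.92e-16). Mt2 stood at 8.64, 4.77 and 2.24 CPM and then at 149, 127 and 106 (log2 difference 4.73, SE 0.38, adjusted p = 2.16e-13). The remaining genes of zinc transport had few calls, and of the 11 tested genes in that list only Mt1, Mt2 and Slc30a4 (1.85) rose, the last losing its call without 30 h replicate 3 or 48 h replicate 3.

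Genes of ribosome production fell almost throughout. Of 30 tested ribosome biogenesis genes 28 fell and none rose, against 13.3% of all genes lower, with a median of -1.16 and 26 falling without the 48 h replicate 1. Nhp2, part of the small RNA-guided modification complex, stood at 1083, 1053 and 1076 CPM at 30 h and at 442, 396 and 404 at 48 h (log2 difference -1.37, SE 0.14, adjusted p = 1.18e-11). Nop16 stood at 202, 227 and 235 CPM and then at 59.6, 83.2 and 85.1 (log2 difference -1.53, SE 0.16, adjusted p = 1.29e-10). Every library at 48 h was below every library at 30 h in both. Heatr1 and Bop1, which act in pre-ribosomal RNA processing, fell (-1.37 and -1.22), as did Npm1, nucleophosmin (-1.30), the last chosen after its values were seen. Nip7 (adjusted p = 0.743) and Bysl (adjusted p = 0.112) did not pass, though Bysl passed with no filter on low counts or in a fit of the 6 libraries alone.

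Polyamine and nucleotide synthesis showed the same direction, with 15 of 21 tested members lower, none higher and a median of -0.793, and 13 lower without the 48 h replicate 1. Srm, the spermidine synthase, stood at 1048, 1128 and 1076 CPM at 30 h and at 290.5, 280.1 and 319 at 48 h (log2 difference -1.87, SE 0.15, adjusted p = 1.74e-14). Shmt1, which feeds the folate cycle (-1.68), Cad, which starts pyrimidine synthesis (-1.43), and Mthfd1 of folate metabolism (-1.02) fell. Among 14 translation initiation genes 8 fell and 1 rose. The fallers included Eif5a (-0.72), Eif4a1 (-0.63) and Eif3b (-0.91), and the gene that rose was Eif4ebp1, a repressor of cap-dependent initiation, from 128, 128 and 109 CPM to 326, 345 and 306 (log2 difference 1.42, SE 0.14, adjusted p = 1.54e-11).

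Protein folding genes of the cytosol and mitochondria fell, 11 of 16 tested with none higher and a median of -0.645, and 9 without the 48 h replicate 1. Hspd1, the mitochondrial chaperonin HSP60, stood at 833, 964 and 1007 CPM at 30 h and at 238, 241 and 268 at 48 h (log2 difference -1.91, SE 0.14, adjusted p = 1.76e-15). Its partner Hspe1 (-1.35) fell, as did Hsph1 (-1.60) and Hspa9 (-1.02). Myc, whose targets include many genes of these groups as background, stood at 195, 225 and 211 CPM and then at 156, 146 and 136; the 2 times did not overlap, but the gene just missed the threshold (log2 difference -0.53, SE 0.21, adjusted p = 0.0544) and passed under 6 of the alternative settings. Its antagonists Mxd1 (2.76), Mxd3 (1.87) and Mxd4 (1.52) rose, the last losing its call without 30 h replicate 1 or 48 h replicate 3.

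**Figure D2:**
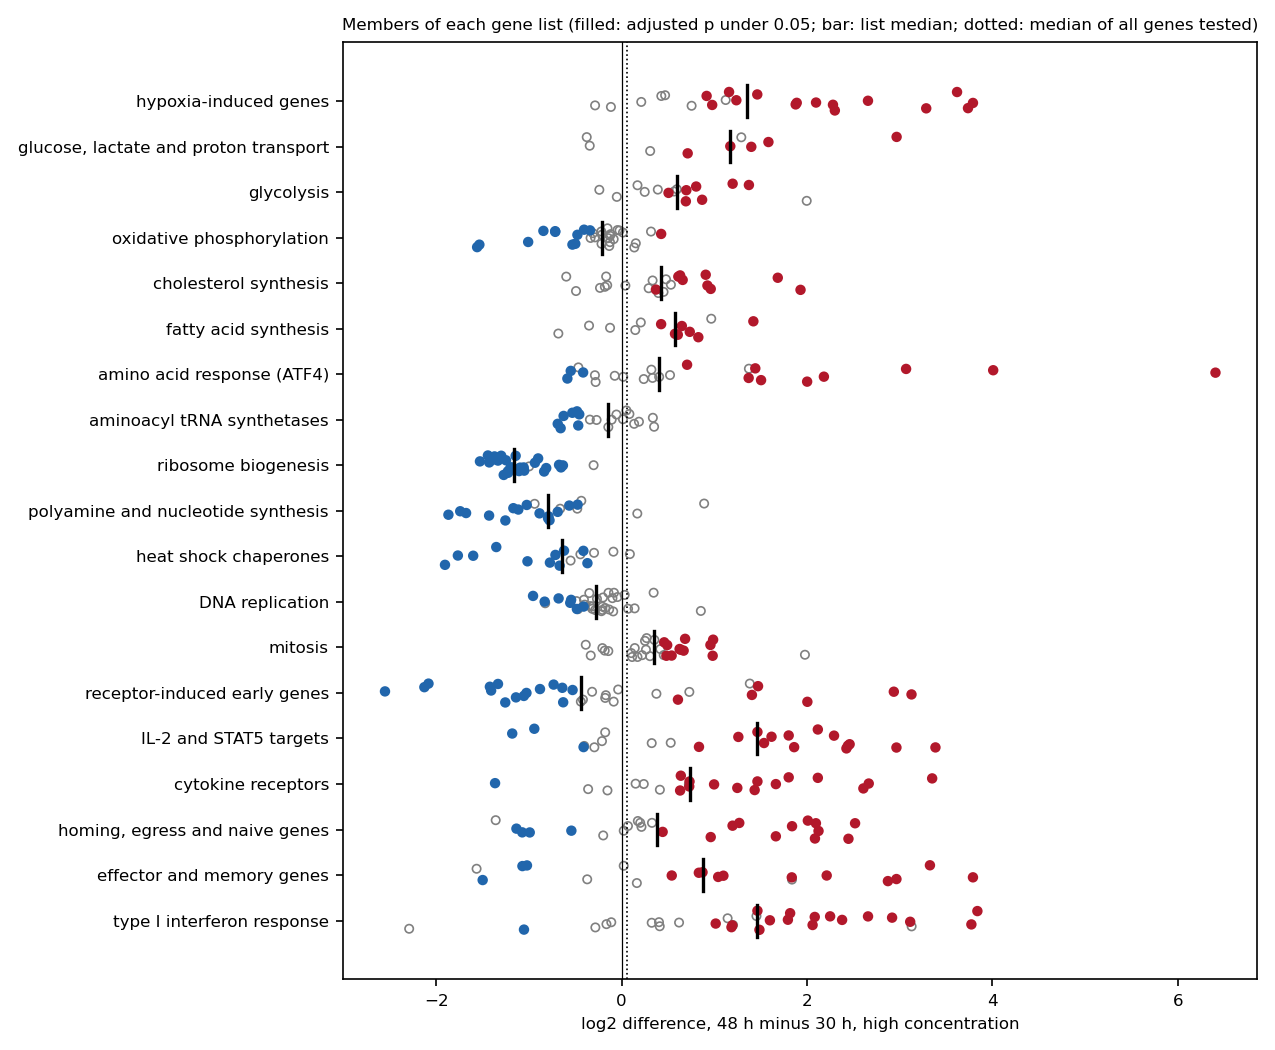
Log2 difference (48 h minus 30 h, high concentration) of each tested member of 19 gene lists; filled points passed an adjusted p of 0.05 (red higher, blue lower), the bar is the list median and the dotted line the median of all genes tested (0.057). Hypoxia, IL-2 and interferon lists lie mostly to the right, and ribosome biogenesis, nucleotide synthesis and chaperones mostly to the left.

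Cell cycle genes did not move in 1 direction. Of 29 tested mitosis genes 11 rose and none fell, with a median of 0.354 and 7 rising in a fit of the 6 libraries alone or without 30 h replicate 1, and 9 without the 48 h replicate 1. Ccnb2, cyclin B2, stood at 92.2, 108 and 129.7 CPM at 30 h and at 206, 214 and 237 at 48 h (log2 difference 0.99, SE 0.19, adjusted p = 4.32e-05). Top2a, the topoisomerase that untangles chromosomes, rose by 0.98, and Ube2c by 0.64. Of 34 tested DNA replication genes 7 fell and none rose, a share somewhat above the 13.3% of all genes. Mcm4, part of the replicative helicase, stood at 305, 245 and 321 CPM and then at 116, 184 and 187 (log2 difference -0.83, SE 0.17, adjusted p = 0.000106), whereas Mcm3 of the same helicase did not pass (-0.32, adjusted p = 0.111). Among 14 genes of the G1 phase, the kinase inhibitors Cdkn2d (1.56) and Cdkn2c (1.46) rose, as did Cdkn1b (1.44), E2f2 (1.21) and the cyclin gene Ccnd3 (0.83). Cdk4 (-0.50) and Ccnd2 (-0.41) fell, while Cdkn1a did not pass (0.32, adjusted p = 0.189) other than without 48 h replicate 1. The call for Cdkn1b was lost on leaving out any of 5 libraries, and that for Ccnd2 without 48 h replicate 1 or in a fit of the 6 libraries alone, with or without a replicate block. Without 48 h replicate 1, 7 of the 14 rose and 1 fell.

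The early genes of receptor signalling mostly fell. Of 31 tested members 15 fell and 6 rose, with a median of -0.44. Of all genes 13.3% fell and 16.7% rose, so the share that rose is near that of all genes. Nfkbid, a nuclear regulator of NF-κB, stood at 157, 169 and 144 CPM at 30 h and at 46.2, 21.9 and 43.2 at 48 h (log2 difference -2.08, SE 0.2, adjusted p = 6.57e-12). Dusp2, a phosphatase of MAP kinases (-1.14), and Cd69, an early surface marker that holds S1pr1 inside the cell (-1.26), fell. So did Irf4 (-0.88) and Nr4a1, a reporter of receptor signal strength (-0.73). The members that rose were Batf3 (3.13), Ier3 (2.94), Fos (2.00), Jun (1.47), Tnfrsf9, which encodes the costimulatory receptor 4-1BB (1.41), and Irf8 (0.61, a call lost in 6 alternatives). All 6 are given, so some were named after their values were seen.

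Targets of IL-2 and STAT5 rose while Il2 itself fell. Of 23 tested members 14 rose and 3 fell, against 16.7% and 13.3% of all genes, so the share that fell is that of all genes. The median was 1.47, and 15 rose and 2 fell without the 48 h replicate 1. Socs2, a feedback inhibitor of cytokine signalling, stood at 62.7, 60.1 and 68 CPM at 30 h and at 756, 609 and 635 at 48 h (log2 difference 3.39, SE 0.15, adjusted p = 5.72e-23). Il2ra, the α chain of the IL-2 receptor, stood at 83.5, 84.3 and 75.1 CPM and then at 319.9, 322 and 409 (log2 difference 2.12, SE 0.2, adjusted p = 1.07e-11). Pim1, a survival kinase, stood at 61.9, 75.2 and 83.7 CPM and then at 395, 354 and 448 (log2 difference 2.43, SE 0.2, adjusted p = 8.83e-14). Bcl2, which blocks the mitochondrial death pathway, stood at 46.1, 46.5 and 44.8 CPM and then at 201, 256 and 288 (log2 difference 2.44, SE 0.16, adjusted p = 1.53e-17). None of the 4 overlapped between the times. The members that fell were Cd83 (-1.18), Bcl2l1 (-0.94) and Ccnd2.

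Among secreted factors the lymphotoxins rose as Il2 and the CC chemokines Ccl3 and Ccl4 fell. Lta, lymphotoxin α, stood at 284, 369.6 and 289 CPM at 30 h and at 1328, 1427 and 1255 at 48 h (log2 difference 2.09, SE 0.14, adjusted p = 4.29e-17). Ltb, its partner, rose by 1.54 and Osm, oncostatin M, by 2.29. The naive mean of Ltb (2612 CPM) lay above its 48 h mean (1740), and those of Lta and Osm lay below theirs. Ccl3 stood at 25.2, 20.3 and 25 CPM and then at 1.68, 1.22 and 2.28 (log2 difference -3.66, SE 0.51, adjusted p = 1.49e-07), whereas Ccl5 rose by 1.23. Of 10 tested cytokine genes these 3 rose and 2 fell, Il2 and Pdgfb (-1.20), and of 4 tested chemokine genes 1 rose and 2 fell.

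Receptors for cytokines rose in 14 of 21 tested genes and fell in 1, with a median of 0.733, though 9 rose in a fit of the 6 libraries alone and 13 without the 48 h replicate 1. Il10ra, the IL-10 receptor, stood at 5.04, 6.37 and 6.35 CPM at 30 h and at 41.1, 40.1 and 35.5 at 48 h (log2 difference 2.67, SE 0.31, adjusted p = 8.58e-10). The gene that fell was Il12rb1 (-1.37). Il2rb, the β chain shared by the IL-2 and IL-15 receptors, rose by 1.80 and Il6ra by 1.44. Il7r, the receptor for the survival cytokine IL-7, was at 2.16, 1.59 and 2.99 CPM and then at 0, 6.08 and 13.2, overlapping groups, and its call (log2 difference 1.66, SE 0.58, adjusted p = 0.0268) was lost without 30 h replicate 1 or 2 or without 48 h replicate 3. Naive means of Il6ra (293.2 CPM) and Il7r (209.5) lay above their 48 h means (94.01 and 6.426). Those of Il10ra and Il2rb lay below theirs.

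Part of the naive and homing programme rose. Of 24 tested members 12 rose and 4 fell, with a median of 0.385. Of all genes 16.7% rose and 13.3% fell, so the share that fell is near that of all genes. Klf2, a transcription factor that drives homing and egress genes such as S1pr1, stood at 20.9, 15.5 and 15.7 CPM at 30 h and at 75.6, 64.4 and 78.3 at 48 h (log2 difference 2.10, SE 0.23, adjusted p = 2.99e-10). S1pr1, the receptor for exit from lymphoid tissue, stood at 5.04, 4.38 and 8.22 CPM and then at 16.8, 23.1 and 35 (log2 difference 2.09, SE 0.3, adjusted p = 1.72e-07). The 2 times were apart in both. Igfbp4 and Rasgrp2, which are high in naive T cells, rose by 2.12 and 2.52. At 48 h these 4 genes stayed below their naive means, 669.2 CPM for Klf2, 264.4 for S1pr1, 954.9 for Igfbp4 and 248.2 for Rasgrp2. Other naive genes did not join them: Ccr7 (0.20, adjusted p = 0.222) and Lef1 (0.02, adjusted p = 0.953) did not pass, and Tcf7, a factor of naive and memory cells, fell (-0.54, adjusted p = 0.0408), a call lost in 6 alternatives. The others that fell were Id3 (-0.99), Actn1 (-1.07) and Dapl1 (-1.13).

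Effector and memory genes were higher in 11 of 19 tested cases and lower in 3, against 16.7% and 13.3% of all genes. The median was 0.873. Vim, which encodes the filament protein vimentin, stood at 200.2, 219 and 203 CPM at 30 h and at 1610, 2262 and 2375 at 48 h (log2 difference 3.33, SE 0.17, adjusted p = 3.3e-21). Lgals1, galectin-1, stood at 117, 142 and 92.3 CPM and then at 900, 850 and 823 (log2 difference 2.87, SE 0.19, adjusted p = 1.64e-16). Crip1 rose by 1.84. The naive mean of Crip1 (2007 CPM) lay above its 48 h mean (940.1), while those of Vim (361.4) and Lgals1 (316.2) lay below theirs. S100a4 (-1.50), Itga4 (-1.07) and Cd44, the adhesion receptor used to sort memory cells (-1.02, groups overlapping), fell. The call for Cd44 was lost in 6 alternatives, among them the fit without 48 h replicate 1, and that for S100a4 without 30 h replicate 1 or 3 or 48 h replicate 3. In a fit of the 6 libraries alone, or without 30 h replicate 1, the count lower in the list was 1. Among lineage genes, Runx1 (1.40) and Runx3 (0.86) rose. The naive mean of Runx1 (116.7 CPM) lay above its 48 h mean (43.83), and that of Runx3 (110.3) below (153.1). Pdcd1, which encodes PD-1, fell from 62.7, 55.7 and 53.4 to 16.8, 11.5 and 11.4 CPM (log2 difference -2.14, SE 0.25, adjusted p = 1.09e-09). Foxp3, the regulatory T-cell factor, stood at 0, 0.398 and 0.374 CPM at 30 h and 4.2, 5.47 and 2.73 at 48 h, levels that rest on few counts.

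The type I interferon list rose in 17 of 30 tested members and fell in 1, with a median of 1.46 and 18 rising without the 48 h replicate 1. Isg15 and Ifit1 rose and Bst2 fell, and their promoters are shown because all 3 hold the core of the interferon-stimulated response element, here TTTC, any 2 bases and TTTC again, in capitals on either strand (RefSeq, GRCm38.p6, plus strand for Ifit1 and minus for Isg15 and Bst2). Ifit1 and Bst2 were chosen after their values were seen.
Isg15 (chr4:156200769-156201068): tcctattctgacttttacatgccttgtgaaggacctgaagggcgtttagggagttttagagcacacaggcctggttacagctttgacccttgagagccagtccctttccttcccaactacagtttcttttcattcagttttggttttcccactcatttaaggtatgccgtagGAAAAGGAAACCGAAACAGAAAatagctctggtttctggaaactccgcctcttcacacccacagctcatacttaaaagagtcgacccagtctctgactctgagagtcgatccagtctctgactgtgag
Ifit1 (chr19:34640639-34640938): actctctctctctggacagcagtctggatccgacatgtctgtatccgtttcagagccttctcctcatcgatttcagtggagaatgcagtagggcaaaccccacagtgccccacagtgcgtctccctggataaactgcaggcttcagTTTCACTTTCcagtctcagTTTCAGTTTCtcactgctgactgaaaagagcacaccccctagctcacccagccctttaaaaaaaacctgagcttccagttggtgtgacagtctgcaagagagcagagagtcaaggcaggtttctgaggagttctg
Bst2 (chr8:71537423-71537722): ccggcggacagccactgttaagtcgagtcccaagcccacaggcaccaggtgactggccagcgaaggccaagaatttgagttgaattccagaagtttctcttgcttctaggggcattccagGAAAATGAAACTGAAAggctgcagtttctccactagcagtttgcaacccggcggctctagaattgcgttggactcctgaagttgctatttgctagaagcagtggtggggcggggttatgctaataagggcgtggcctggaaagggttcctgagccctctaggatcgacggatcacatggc
Isg15 has 3 matches in an overlapping run, Bst2 has 2 that overlap and Ifit1 has 2 apart. The element occurs in 57.7% of the 26 list genes with a promoter, against 3.84% of tested genes, 3.99% of all genes in the table and 4.85% of the genes that rose. A match is a description of the letters only.

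Isg15, a ubiquitin-like protein, stood at 5.04, 5.57 and 1.5 CPM at 30 h and at 36.1, 25.5 and 28.2 at 48 h (log2 difference 2.92, SE 0.35, adjusted p = 2.43e-09). Ifi27l2a stood at 306, 253 and 278 CPM and then at 895, 987 and 1018 (log2 difference 1.79, SE 0.14, adjusted p = 2.29e-15). Zbp1, a sensor of nucleic acids, stood at 18, 17.5 and 16.1 CPM and then at 71.4, 82.6 and 64.6 (log2 difference 2.08, SE 0.2, adjusted p = 4.29e-12). Isg20, an exonuclease, rose by 2.06. Ifit1 remained low, at 2.88, 0.796 and 0 CPM and then 5.88, 3.65 and 5.01 (log2 difference 2.25, SE 0.71, adjusted p = 0.012), and its call was lost without 30 h replicate 2 or 3. Bst2, the tetherin of enveloped viruses, went from 178, 173 and 177 to 89.8, 92.3 and 73.3 CPM (log2 difference -1.05, SE 0.16, adjusted p = 4.13e-07). Among the risers named here, naive means of Isg15 (60.26 CPM), Ifi27l2a (2063), Zbp1 (171.3) and Ifit1 (38.55) lay above their 48 h levels. The naive mean of Isg20 (74.13) lay below its 48 h mean (110.3). In the list of interferon-induced GTPases and antigen presentation 11 of 25 tested members rose and 3 fell, against 16.7% and 13.3% of all genes. The risers included Nlrc5, the activator of MHC class I genes (1.33), and Psmb8, an immunoproteasome subunit (0.65). The naive mean of Nlrc5 (178.7 CPM) lay above its 48 h mean (79.54), and that of Psmb8 (1210) below (1466). The fallers were the proteasome activator genes Psme2 (-0.69) and Psme1 (-0.47) and the peptide trimming gene Erap1 (-1.38). The call for Psme1 was lost without 30 h replicate 3 and that for Erap1 without 48 h replicate 2.

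At the low starting concentration the same interval changed fewer genes. There 857 of the 9239 genes passed (9.28%), 529 (5.73%) higher and 328 (3.55%) lower. Of the 2778 genes called at the high concentration 439 were also called at the low concentration in the same direction, 15.8% of the high list and 51.2% of the low list, and 53 were called in opposite directions. The 2 changes share no library. A test of the difference between the concentrations in the change, in the same fit, passed for 1195 genes (12.9%), 575 (6.22%) with the change higher at the high concentration and 620 (6.71%) lower, and 970 of the genes called at the high concentration were among them. Titles carry a second number of unstated meaning. It is 2 in all high libraries of 30 h and 48 h and in the 3 low 30 h libraries, but 1 in low 48 h replicates 2 and 3. With low 48 h replicate 1 as the only low 48 h library, 241 genes passed at the low concentration and 708 in the difference test. Without low 48 h replicate 3 or 2, 485 and 552 passed at the low concentration. Without the high 48 h replicate 1, 993 passed the difference test.

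The hypoxia list rose little at the low concentration. There 1 of the 22 members rose (Ankrd37, 0.71) and 1 fell (Ero1l, -1.79), near the shares of all genes there, 5.73% higher and 3.55% lower. The median was -0.0762, and in 11 of 22 the change was higher at the high concentration, against 6.22% of all genes. Egln3 stood at 10.2, 10.5 and 8.42 CPM at 30 h and at 6.78, 8.63 and 8.03 at 48 h at the low concentration, and the changes differed (log2 4.04, SE 0.35, adjusted p = 6.67e-12). Slc2a3 stood at 31.2, 24.9 and 23 CPM and then at 20.3, 21.9 and 29.3 there (log2 3.09, SE 0.28, adjusted p = 6.67e-12). Ndrg1 stood at 11.4, 9.39 and 12.4 CPM and then at 9.9, 10.4 and 16.1 (log2 3.47, SE 0.32, adjusted p = 2.51e-11). All 3 overlapped between the times at the low concentration. At 30 h each of the 3 was already higher in every high library than in every low library. Vegfa (2.95), Mgarp (3.06), Bnip3 (2.05), Slc2a1 (1.51), Mt1 (3.09), Isg15 (3.63) and Trib3 (2.57) also passed the difference test, with the log2 difference of the changes in brackets.

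The genes with the largest differences between the concentrations included several of the largest risers. Itga7 stood at 1.2, 2.21 and 0.443 CPM and then at 0, 0 and 1.21 at the low concentration (log2 6.52, SE 1.3, adjusted p = 0.000302). Amica1 stood at 9.01, 7.73 and 13.3 CPM and then at 18.8, 17.3 and 12.4 there (log2 4.10, SE 0.41, adjusted p = 1.73e-10), and Matk at 3, 4.42 and 4.43 and then 3.13, 5.18 and 2.01 (log2 4.19, SE 0.62, adjusted p = 3.3e-06). Rpl39 had 3.32, with scattered levels of 426, 519.5 and 997 CPM at 48 h high, and its reads can be shared with processed copies, so the value is uncertain. In the other direction stood Ccl4 (-3.67), Rpph1 (-4.19), Marcksl1 (-3.25), Tnfsf11 (-2.91) and Eif2s3x, a subunit of initiation factor 2 (-2.30). Nrgn, a calmodulin-binding protein, fell at the high concentration (-0.76, a call lost on leaving out any of 5 high libraries) and rose at the low concentration, from 7.21, 12.2 and 3.99 to 52.1, 57.5 and 53.8 CPM (log2 -3.59, SE 0.42, adjusted p = 1.94e-08).

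Other gene groups changed at both concentrations. Of all genes 5.73% rose and 3.55% fell at the low concentration. The difference test passed for 6.22% as higher at the high concentration and for 6.71% as lower. In the IL-2 and STAT5 list 12 of 23 members rose and 2 fell at the low concentration, while 14 rose and 3 fell at the high. In the difference test 8 passed as higher at the high concentration and 2 as lower. Socs2 rose at both, by 2.16 at the low concentration, and the changes differed (log2 1.22, SE 0.21, adjusted p = 4.5e-05). Lta rose by 1.71 at the low concentration and the difference did not pass (log2 0.38, adjusted p = 0.205). Vim rose by 2.66 there (log2 0.66, SE 0.23, adjusted p = 0.0457), and Zbp1 by 2.29 with no difference called (adjusted p = 0.748). In mitosis 12 of 29 genes rose at the low concentration and 11 at the high. The change was lower at the high concentration in 5 of the 29 and higher in 1. Ccnb2 rose by 1.87 at the low concentration and 0.99 at the high (log2 -0.88, SE 0.27, adjusted p = 0.0231). In ribosome biogenesis 13 of 30 fell at the low concentration and 28 at the high, and in 9 the change was lower at the high concentration, such as Nhp2 (-1.01).

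**Figure D3:**
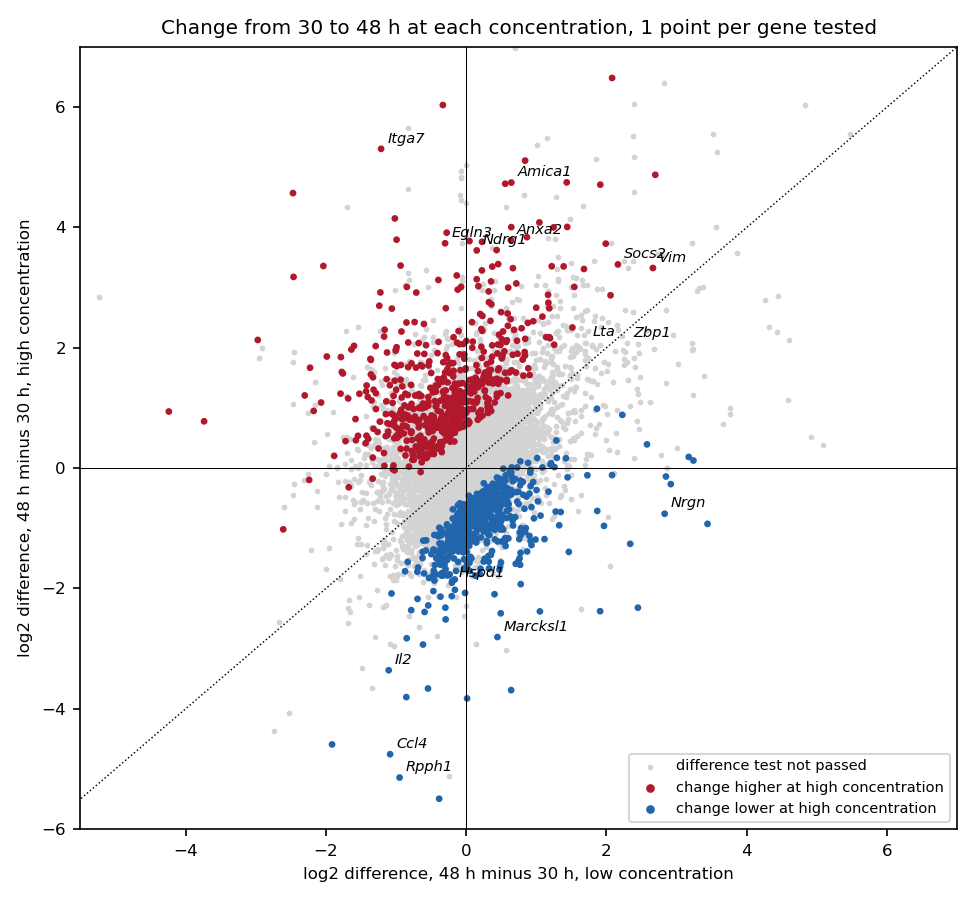
Log2 difference from 30 to 48 h at the low (horizontal) and high (vertical) concentration, 1 point per gene tested; red and blue points passed the test of the difference between the 2 (575 higher and 620 lower at the high concentration) and the dotted line marks equal change. Egln3, Ndrg1 and Itga7 lie high on the plot near or left of 0 on the horizontal axis, and Vim, Socs2 and Lta lie towards the dotted line.

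Over the longer time course, some of these genes stood higher at 48 h and 72 h than at 18 h or 30 h in the dense cultures. Means ± SD are over 3 libraries, or 2 for the low concentration at 72 h, and no test was run between times outside the interval. The high libraries at 18 h and 72 h carry the second number 1. Both low libraries at 72 h carry 2, so the concentrations differ in that number at 72 h. Egln3 was at 4.02 ± 0.556 CPM at 18 h, 13.9 ± 2.15 at 30 h, 188 ± 12.1 at 48 h and 141 ± 15.9 at 72 h in the dense cultures, and at 4.88 ± 1.06 at 72 h at the low concentration. Slc2a3 was at 22.1 ± 2.36 CPM at 18 h, 43.3 ± 1.55 at 30 h, 339 ± 14.6 at 48 h and 499 ± 103 at 72 h, against 28.4 ± 6.55 at the low concentration. Ddit3, at 107 ± 16.7 CPM in naive cells, 17.3 ± 3.85 at 18 h and 14 ± 2.19 at 30 h, stood at 118 ± 9.66 at 48 h and 122 ± 13.4 at 72 h, close to its naive level.

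Other genes came near their dense-culture 48 h level at 72 h at the low concentration. Il2 was at 493 ± 14.3 CPM at 18 h and 13.9 ± 7.17 at 48 h in the dense cultures, and at 86.7 ± 25.6 at 48 h and 8.27 ± 3.35 at 72 h at the low concentration. Socs2 was at 667 ± 78.7 CPM at 48 h and 274 ± 11.9 at 72 h in the dense cultures, and at 603 ± 5.63 at 72 h at the low concentration. Hspd1 was at 249 ± 16.4 CPM at 48 h in the dense cultures and at 698 ± 37.2 at 48 h and 179 ± 2.26 at 72 h at the low concentration.

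**Figure D4:**
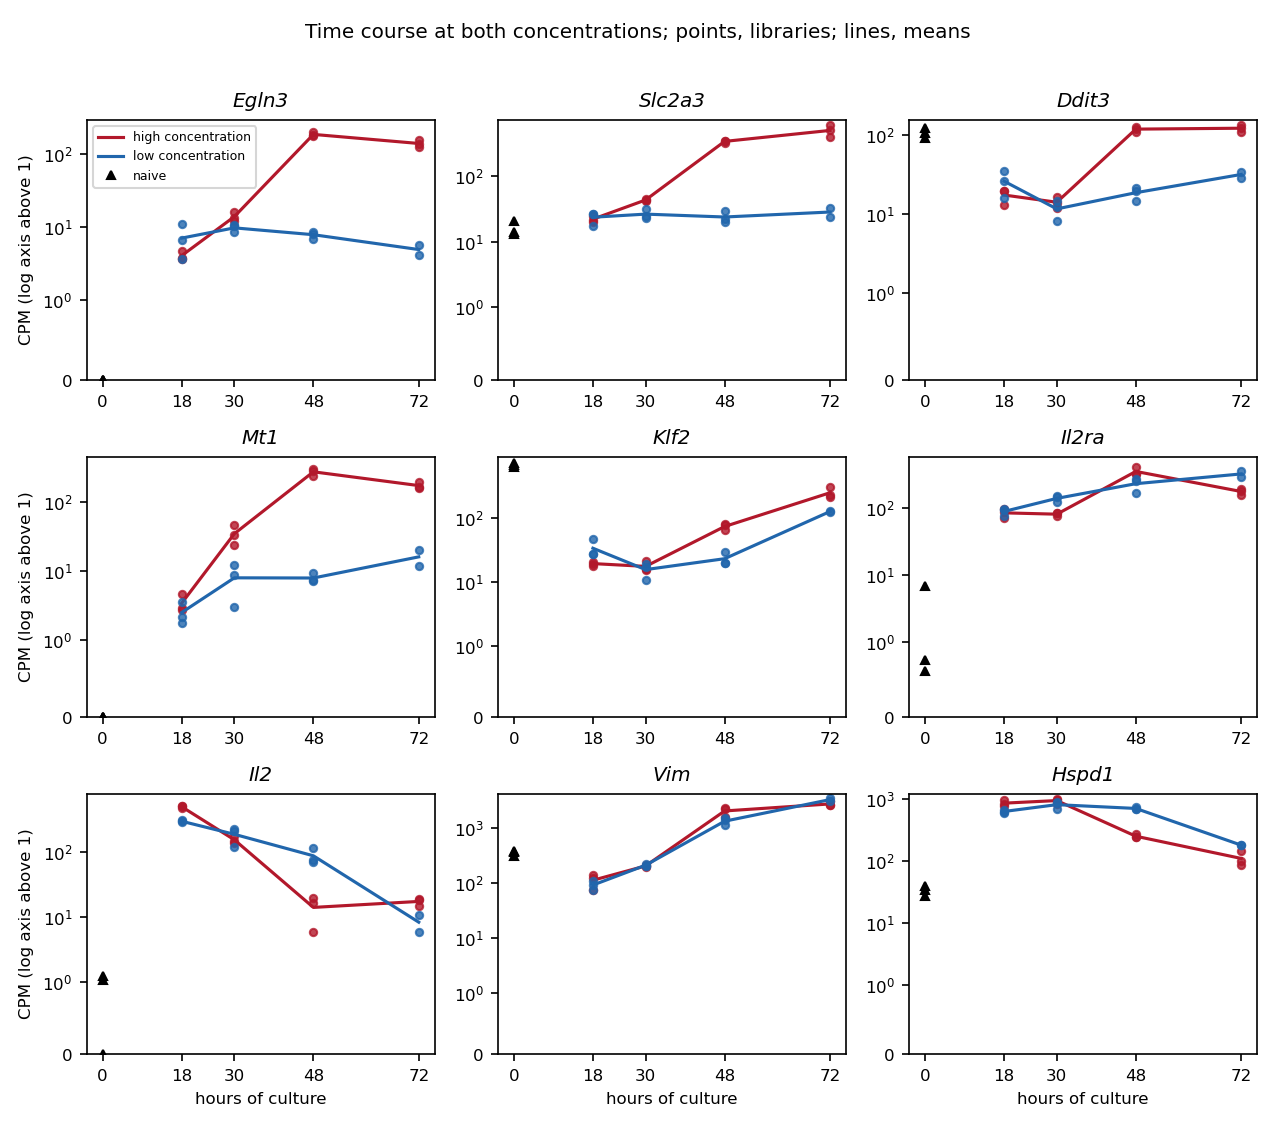
CPM (log axis above 1, linear below) of 9 genes in naive cells (triangles at 0 h) and at 18, 30, 48 and 72 h for the high (red) and low (blue) concentration; points are libraries and lines join means. Egln3, Slc2a3, Ddit3 and Mt1 lie apart by concentration at 48 h and 72 h, and all but Ddit3 lie apart, by less, already at 30 h. Il2, Vim and Hspd1 move in the same direction at both concentrations.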

How the data were processed

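RNA of sorted spleen CD4 T cells was primed with poly-T oligos that carry molecular identifiers, amplified linearly with T7 polymerase and sequenced as 3′ ends, per the labels' protocols. The build is mm9 and the tools include STAR 2.5.2b, HISAT 0.1.5 and the counter HTSeq 0.9.1, per the submitters' processing notes. The aligner behind the table, its strand setting and any collapsing of identifiers were not given in the sources used here. Reads of overlapping and antisense genes therefore cannot be told apart. The authors deposited raw counts per gene symbol, 24421 symbols in 38 libraries of the second experiment, 8924 of them with 0 counts throughout. No row names an unassigned class of reads, and no genome coordinates of the counts were used.

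All 38 libraries were fitted together in edgeR 4.0.16 (R 4.3.3), 1 coefficient per group (13 groups, 25 residual degrees of freedom, common dispersion 0.0268), so that all groups share the estimate of spread, with TMM factors, a robust quasi-likelihood fit and filterByExpr (minimum count 10). The threshold was an adjusted p of 0.05 (Benjamini-Hochberg) over all 9239 genes tested. SE is the log2 difference over the square root of F. The members and the 40 gene lists were chosen with earlier results of these data known, so they support nothing by themselves. Lists are described by counts and medians, without a test.

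Named genes are the 10 largest rises and falls among called genes at or above the median log2 CPM (4.82) with groups that do not overlap, the 6 largest differences between the concentrations each way, up to 4 called members of each list by smallest p, a fixed set of T-cell genes and markers of other cell types. Not every gene the rule names is described, and lists also count genes not reported here. Where a list had 5 or fewer movers in 1 direction, those outside the rule were named after their values were seen, as were Batf3, Ero1l, Ankrd37, Gapdh, Npm1, Cd44, S100a4, Itga4, Ifit1, Bst2, Fos, Jun, Psat1, Psph, Slc1a5, Nip7, Bysl and Atf4.

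Promoters are RefSeq sequences of GRCm38.p6, matched by symbol for 7478 of the genes tested, and motifs were searched on both strands. Alternatives were DESeq2 1.42.0, its size factors, upper quartile factors, no filter, a minimum count of 30, no ribosomal protein genes, the compared groups alone, a replicate block and leaving out each library.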

Additional observations from a re-analysis of the deposited data

Results flagged for a closer look

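The change from 30 to 48 h differed between the concentrations for 1195 genes by edgeR's test of the difference itself (adjusted p under 0.05). Each value below is the log2 change at the high concentration minus that at the low concentration, for genes named by rule.

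The change was higher at the high concentration for Itga7 (6.52), Matk (4.19), Amica1 (4.10), Egln3 (4.04), Isg15 (3.63), Ndrg1 (3.47), Rpl39 (3.32), Mt1 (3.09), Slc2a3 (3.09), Mgarp (3.06), Vegfa (2.95), Trib3 (2.57), S1pr1 (2.22), Bnip3 (2.05), Klf2 (1.53), Slc2a1 (1.51) and Il2ra (1.39). It was lower for Rpph1 (-4.19), Ccl4 (-3.67), Nrgn (-3.59), Marcksl1 (-3.25), Tnfsf11 (-2.91), Eif2s3x (-2.30), Il2 (-2.26), Srm (-1.42) and Cd4 (-0.66). Of these 26 genes 23 passed under every alternative. The exceptions were Cd4, lost in 6 alternatives, Mgarp, lost without low 30 h replicate 3, and Bnip3, lost with the single low 48 h library of second number 2. Groups of 3 libraries are too small for the search for outlying samples.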

How the results depend on the processing

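At the high concentration every alternative gave a count of called genes within 1.5 times of 2778, from 2037 to 2781. Leaving out 1 library gave 2209 to 2620 there, 485 to 794 at the low concentration and 872 to 1178 in the test of the difference. With low 48 h replicate 1 as the only low 48 h library, the low concentration gave 241 genes and the difference test 708, on the assumption that this library has the spread of the other groups. The cause was not tested. Of the 2778 genes, 2690 were called in the same direction by DESeq2 and 2081 in a fit of the compared groups alone, where 7969 genes were tested. Of 188 named genes, none changed direction with a call on either side in any alternative, and 149 of the 175 called kept their call in every one. The labels do not say whether replicate numbers pair the libraries. At the high concentration, deviations of same-numbered libraries at 30 and 48 h correlated at -0.0201, -0.0271 and 0.222. Not every library there correlated best with its own number. With groups of 3 libraries this cannot settle whether they are paired. With a replicate block, in the compared groups alone, 2037 genes passed at the high concentration, 924 at the low and 921 in the difference test, against 2127, 690 and 840 without the block. Libraries of 1182242 to 2733659 counts leave genes of a few CPM, such as Il7r and Foxp3, on few counts.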

Other observations

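Genes of cell survival were divided. Of 14 tested members of the Bcl2 family 6 fell and 1 rose from 30 to 48 h at the high concentration, against 13.3% and 16.7% of all genes, and 4 fell in a fit of the 6 libraries alone or without 48 h replicate 3. The gene that rose was Bcl2, and those that fell were Bid, which links death receptors to mitochondria (-1.41), Bcl2l1, which encodes Bcl-xL (-0.94), Bcl2l11, which encodes Bim (-0.87), Bax (-0.48) and the near-identical copies Bcl2a1b (-2.83) and Bcl2a1d (-2.96). The call for Bax was lost in a fit of the 6 libraries alone or without 30 h replicate 2 or 48 h replicate 3, and that for Bcl2l11 without 30 h replicate 1 or 48 h replicate 3. Bax rose at the low concentration (0.50) and its changes differed (log2 -0.98, SE 0.21, adjusted p = 0.000909). None of 14 tested p53 targets rose and 5 fell, among them Ccng1 (-1.15) and Zmat3 (-0.98), though 2 fell in a fit of the 6 libraries alone or without 30 h replicate 2 or 48 h replicate 3, and 3 without 30 h replicate 1, where the call for Zmat3 was lost. Without 48 h replicate 1, 4 fell and 1 rose.

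The list of endoplasmic reticulum chaperones, which is not limited to chaperones, did not shift as a whole. Its median log2 difference was 0.0262, beside 0.057 for all genes. Of its 19 tested members 7 were higher and 2 lower, against 16.7% and 13.3% of all genes. Without 48 h replicate 1, 5 were higher and 1 lower, and across the alternatives 5 to 7 were higher and 1 to 4 lower, with 1 lower also in a fit of the 6 libraries alone or without 30 h replicate 1 or 3. Xbp1, a transcription factor of the unfolded protein response, stood at 81.4, 78.4 and 86.7 CPM at 30 h and at 278, 423 and 412 at 48 h (log2 difference 2.18, SE 0.17, adjusted p = 3.65e-15), while Calr, calreticulin, fell (-0.76). Autophagy and lysosome genes rose in 7 of 20 and fell in none (6 rising without 48 h replicate 1), including Map1lc3b (0.84) and Sqstm1, an autophagy receptor (0.60). Of 8 tested Gimap genes, GTPases of lymphocyte survival, 4 rose, with Gimap7 at 53.3, 49.3 and 46.3 CPM and then at 154, 124 and 130.2 (log2 difference 1.46, SE 0.18, adjusted p = 6.77e-09). The coinhibitory list is not limited to receptors. Among its 9 tested genes 2 rose, Nt5e (2.43) and 4632428N05Rik, which encodes VISTA (1.07). In it 3 fell, Pdcd1, Cd200 and Cd274 (adjusted p = 0.0282), against 16.7% higher and 13.3% lower among all genes. The call for 4632428N05Rik was lost without 30 h replicate 2 and that for Cd274 in 4 alternatives, among them the fit without 48 h replicate 1. Cd2, an adhesion receptor of T cells, rose by 1.88 and Thy1 by 0.98, while Cd4 fell (-0.53, a call lost without 30 h replicate 3) and Cd3e did not pass (0.09, adjusted p = 0.81).

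Among the 53 genes called in opposite directions at the concentrations, 23 were higher at 48 h at the high concentration. Gins2, a replication factor, fell at the high concentration (-0.55) and rose at the low (0.52).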
